A study of Mus musculus and Rattus norvegicus with 32 samples.

Results

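The 9 genes described here encode components and regulators of the complement system: C2, Cfb, Cfd, C3, C4a, C4b, C7, C8g and Serping1. They were found by gene symbol in 4 RNA-seq count tables that hold 88370 different genes in all. The set was selected on the log2 fold changes of C4a and Cfb, which stood higher both in METTL5-deficient hearts after pressure overload and in rat cardiomyocytes with extra METTL5. The values of those 2 comparisons are therefore given as a description, with no test. The hearts at 1 month and at 3 months were not used for the choice, and there the genes were tested.

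Each symbol had 1 entry in each mouse table. In the rat table Cfb had 2 entries, and the one named ENSRNOG00000051158 was at 0 in all 8 libraries.

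METTL5 is a methyltransferase that places an m6A mark on 18S ribosomal RNA. RNA-seq was performed on whole hearts of C57BL/6 mice and on neonatal rat ventricular myocytes (NRVMs), with 4 libraries in each of 8 groups. The hearts came from mice 1 month old (Ctrl and Mettl5-KO), from mice 3 months old (Ctrl and Mettl5-cKO), and from Ctrl and Mettl5-cKO mice 4 weeks after transverse aortic constriction (TAC), also labelled as 3 months old. In Mettl5-cKO mice, exons 2 to 4 of Mettl5 were floxed and removed by Cre under the αMHC promoter, so that cardiomyocytes lost the gene while the hearts still held all their other cells. NRVMs were isolated from Sprague Dawley rats labelled as postnatal day 2 and pre-plated to remove fibroblasts. All of them received 20 µM phenylephrine (PE) for 24 h, a hypertrophic agonist, after an adenovirus with GFP (AdGFP) or with the human METTL5 coding sequence (AdMETTL5). No library of sham-operated hearts was used here, so TAC and the table that holds the TAC hearts cannot be told apart.

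Complement is a cascade of plasma proteins that tags targets for removal and lyses cells. The classical and lectin pathways join cleaved C4 with cleaved C2 into an enzyme that splits C3, and the alternative pathway forms a second such enzyme from C3b and factor B. The products lead to the membrane attack complex of C5b to C9. The liver makes most circulating complement, while fibroblasts, macrophages and other cells of the heart also transcribe several of its genes.

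Total counts ran from 19899033 to 21804907 in the heart libraries and from 14324700 to 18085339 in the NRVM libraries. No pair of libraries within a group agreed within sampling noise. The count of Mettl5 as a whole gene did not separate the genotypes in the hearts. It was 5.45 ± 0.742 CPM (counts scaled to the library size) in Ctrl and 6.35 ± 0.903 in the libraries labelled KO at 1 month, 7.10 ± 0.489 in Ctrl and 6.28 ± 0.705 in cKO at 3 months, and 6.52 ± 0.717 in Ctrl and 6.43 ± 0.749 in cKO after TAC (mean ± SD, n = 4, with no call by edgeR). A gene count also takes in exons outside the floxed part, so it does not check the deletion. From RNA-seq reads along the gene, the study reported the floxed exons as almost undetectable in cKO hearts. In NRVMs rat Mettl5 was 17.0 ± 0.773 CPM with AdGFP and 21.2 ± 1.76 with AdMETTL5 (log2 fold change 0.32, SE 0.0723, adjusted p = 0.00295 by edgeR), although the virus carries the human sequence.

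In the mouse genome (GRCm38, GENCODE M21) 4 of the genes lie in the complement cluster of the major histocompatibility complex on chromosome 17, all on the minus strand. C4b lies at chr17:34728380-34743882, C4a at chr17:34809092-34823464, Cfb at chr17:34856374-34862518 and C2 at chr17:34862604-34898265. This cluster spans 169886 bases from the start of C4b to the end of C2, and only 85 bases separate Cfb from C2. C3 lies farther along the same chromosome at chr17:57203970-57228136. C7 is at chr15:4988762-5063740, C8g at chr2:25498651-25501719, Serping1 at chr2:84765387-84775444 and Cfd at chr10:79890853-79892655. Cfd is the only one of the 9 on the plus strand. C8g overlaps Fbxw5 on the opposite strand, with no overlap of exons. Exons of C2 overlap those of Zbtb12, which lies on the opposite strand. All 9 are annotated as protein coding except C4a, which this annotation lists as a processed transcript.

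C4a and C4b are near-identical copies, and only the bases where they differ can tell their reads apart. How reads from identical stretches were shared between the copies was not checked. Their transcripts C4a-207 and C4b-201 were identical at 96.1% of 5367 aligned bases, and 16.5% of all stretches of 100 bases of C4a occur unchanged in C4b. Bases 2755 to 2814 of C4a-207 and bases 2761 to 2820 of C4b-201 are shown because this window of 60 bases holds 13 differences, marked by capitals, by which a read can be given to one copy.
C4a: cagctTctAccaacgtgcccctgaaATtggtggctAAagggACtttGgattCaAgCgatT
C4b: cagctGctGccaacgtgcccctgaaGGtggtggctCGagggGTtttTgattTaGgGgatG

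Cfb and C2 share reads with another gene model. Gm20547 (chr17:34856412-34882042, minus strand, annotated as protein coding) runs across both and overlaps exons of each on the same strand. Of all 100-base stretches of the Cfb transcript, 81.0% occur in Gm20547, as do 53.2% of those of C2, while Cfb and C2 have none in common. Conversely, 94.9% of the stretches of Gm20547 occur in Cfb or C2. Counts of these 3 genes are therefore uncertain one by one, and sums over them are given beside the results.

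RefSeq promoters (GRCm38.p6, 250 bases before to 50 bases after the start site) were at hand for 4 of the 9 genes, C3, C7, C8g and Cfd. That of C3, at chr17:57228087-57228386 on the minus strand, is shown because it held most of the matches to the 4 motifs searched, which are marked by capitals.
C3: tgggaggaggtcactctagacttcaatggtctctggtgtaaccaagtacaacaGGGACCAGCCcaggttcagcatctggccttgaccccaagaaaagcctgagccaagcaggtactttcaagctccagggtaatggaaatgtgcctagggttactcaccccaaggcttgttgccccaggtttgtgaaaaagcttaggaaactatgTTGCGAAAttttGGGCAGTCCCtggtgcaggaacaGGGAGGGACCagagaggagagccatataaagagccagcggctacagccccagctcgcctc

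The motifs were searched on both strands. C3 held the C/EBP motif TTGCNNAA, 45 bases before the start site, and the NF-kappaB motif GGGANNNNCC 197, 33 and 10 bases before it, with no overlap between matches. These motifs occur in 10.8% and 20.7% of 32851 promoters of this length. The GAS motif TTCNNNGAA, found in 8.30% of promoters, was present 164 bases before the start of C7. The ISRE motif GAAANNGAAA, found in 3.44%, was in none of the 4. A match is a run of letters and was not tested as a binding site.

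Expression levels were compared between genes only in the mouse hearts and per kilobase of exon. Serping1, the C1 inhibitor that blocks the first proteases of the classical and lectin pathways, was highest, at 27.3 ± 2.88 CPM per kb in Ctrl hearts at 3 months (SD, n = 4). C3, the central component, followed at 13.4 ± 0.847. C4b and C7 came next at 1.53 ± 0.250 and 1.39 ± 0.234 CPM per kb, with overlapping ranges.

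C8g was at 0.996 ± 0.146 CPM per kb and C4a at 0.389 ± 0.0873. Cfb (0.0802 ± 0.0674) and C2 (0.0676 ± 0.0295) overlapped at the bottom of this scale, and Cfd was at 0. Serping1 lay above C3 without overlap in all 6 groups of hearts. In cKO hearts after TAC, Cfb (1.02 ± 0.208 CPM per kb) stood between C7 and C4a, and its range overlapped that of C4a. The place of Cfb on this scale depends on the split with Gm20547. In Ctrl hearts at 3 months Cfb had 20 counts in all and Gm20547 had 111. In cKO hearts after TAC these were 265 and 1. The sum of both models was 1.488 ± 0.2495 and 2.88 ± 0.599 CPM in these groups, not scaled per kb.

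**Figure D1:**
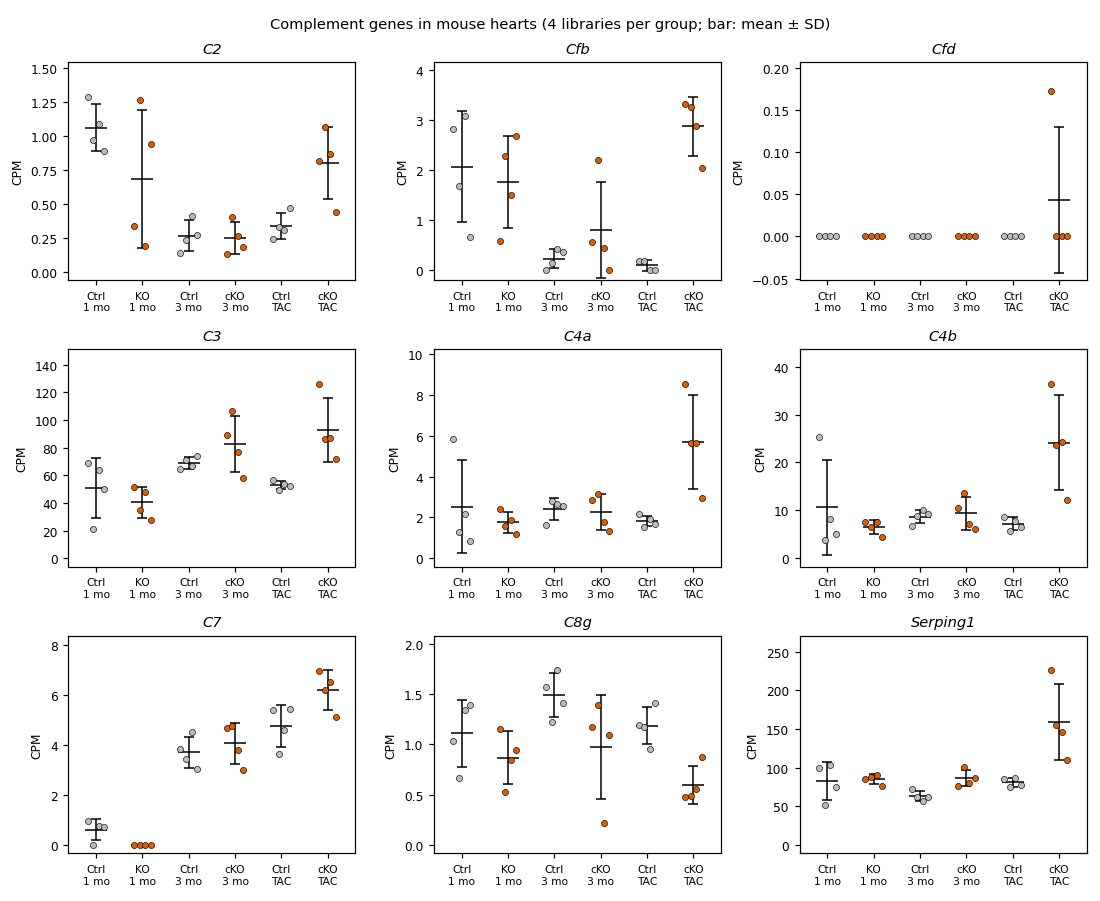
Level of each complement gene (y axis, CPM on one TMM scale over the 24 hearts) in the 6 groups of mouse hearts (x axis). Points are libraries 1 to 4 from left to right, the horizontal bar is the mean and the error bar the SD. C3, C4a, C4b, Cfb and Serping1 are higher in every cKO library than in every Ctrl library after TAC, while the groups at 1 month overlap for each gene except Cfd, which is at 0. For the sum of Cfb and Gm20547, which is not drawn, the groups after TAC overlap.

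The hearts at 1 month (labelled KO) and at 3 months (cKO) address whether loss of METTL5 went with a change of complement RNA without surgery. At 1 month 7 of the 9 genes passed the filter on low counts, and none of them passed the test. The edgeR quasi-likelihood test called 0.00612% of 16329 genes at 1 month. No complement gene had an unadjusted p under 0.05, a level passed by 4.57% of all genes, and DESeq2 called 0 of them. The groups overlapped for each of the 7, while 3.04% of all genes had groups without overlap. The log2 fold changes in libraries labelled KO ran from −0.71 for C4b to 0.05 for Serping1, with a median of −0.34, and 1 of the 7 was above 0. Among all genes tested 48.6% were above 0.

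C4b, the C4 of the classical and lectin pathways, and C4a, its copy known in the mouse as sex-limited protein, varied most among the control hearts at 1 month. C4b had 611, 73, 129 and 91 counts in the 4 Ctrl libraries and 156, 122, 163 and 86 in those labelled KO. C4a had 141, 25, 34 and 15 counts in Ctrl and 50, 30, 40 and 23 in KO. Ctrl library 1 was thus the highest of all 8 for both copies, and the groups overlapped.

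The log2 fold change of C4b was −0.71 (SE 0.541, adjusted p = 0.973 by edgeR), and without Ctrl library 1 it was 0.22. That of C4a was −0.54 (SE 0.545, adjusted p = 0.973 by edgeR), and without this library 0.34. Ctrl library 1 also held 45.6 CPM of the 5 neutrophil markers in sum, against 1.94 to 10.3 CPM in the other 7 libraries, and 14.9 CPM of the 6 activated fibroblast markers against 44.0 to 71.9 CPM. Its 9 macrophage markers summed to 272.5 CPM, against 124 to 196 CPM in the other 7. The neutrophil marker Elane was at 0 in all 8. The part of these markers in the values of C4a and C4b was not tested.

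C7, which joins the membrane attack complex, was close to the limit of detection at 1 month. It had 23, 0, 12 and 13 counts in Ctrl libraries and 0 in all 4 labelled KO, where a count of 0 allows up to 3 counts. The groups overlapped because Ctrl library 2 was at 0 too, and the exact two-sided permutation test gave p = 0.143 (n = 4, smallest possible p 0.0286). C7 did not pass the filter on low counts, and in the older hearts it was above 0 in all 16 libraries.

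C3, the hub of all 3 pathways, was 50.8 ± 21.4 CPM in Ctrl and 40.5 ± 11.1 CPM in KO at 1 month (n = 4 each), with a log2 fold change of −0.33 (SE 0.343, adjusted p = 0.973 by edgeR). Serping1 was 82.5 ± 24.3 and 85.5 ± 6.20 CPM. Neither difference was larger than the spread between libraries.

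At 3 months 6 of the 9 genes passed the filter. The edgeR test called none of them, beside 0.0732% of 16391 genes. C2 and Cfb, with at most 9 and 49 counts in a library, and Cfd, at 0 in all 8 libraries, were too low to test. The log2 fold changes in cKO hearts lay between −0.61 for C8g and 0.44 for Serping1, with a median of 0.12, and 4 of the 6 were above 0, beside 50.3% of all genes.

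Serping1 alone of the 6 had an unadjusted p under 0.05 at 3 months, a level passed by 7.05% of all genes. Its level was 72.7, 62.7, 56.5 and 62.4 CPM in the Ctrl libraries and 76.7, 100.5, 80.5 and 86.9 CPM in the cKO libraries. All 4 cKO hearts lay above all 4 Ctrl hearts, as did 2.12% of the genes tested. The means were 63.6 ± 6.70 and 86.2 ± 10.4 CPM (n = 4 each). The log2 fold change was 0.44 (SE 0.114, unadjusted p = 0.00333, adjusted p = 0.33 by edgeR), and the exact two-sided permutation test gave p = 0.0286, the smallest that 4 against 4 libraries allow. Over fits that each left out 1 library the adjusted p by edgeR ran from 0.189 to 0.742. DESeq2 gave an adjusted p of 0.0482 for the same gene and called no other of the 9, beside 108 of all 30499 genes with counts. The 10 fibroblast markers summed to 923.6 to 1153 CPM in Ctrl and 1189 to 1474 CPM in cKO at 3 months, also without overlap, with none of the 10 called. The cardiomyocyte markers were lower in sum (57150 to 60390 against 49480 to 54800 CPM) and the hepatocyte markers higher (2.35 to 3.19 against 3.23 to 5.22 CPM, with Alb and Fgb at 0), both without overlap and with none called. The part of these cell types in the difference of Serping1 was not tested.

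For the remaining genes at 3 months the groups overlapped. C3 was 69.0 ± 4.36 CPM in Ctrl and 82.6 ± 20.2 CPM in cKO (log2 fold change 0.26, SE 0.162, adjusted p = 0.868 by edgeR). C4b was 8.70 ± 1.42 and 9.34 ± 3.39 CPM, and C4a 2.42 ± 0.542 and 2.27 ± 0.876 CPM. C8g, the gamma chain of C8, had 35, 26, 38 and 32 counts in Ctrl and 27, 31, 5 and 24 in cKO, with the lowest value in cKO library 3 and overlapping groups (log2 fold change −0.61, SE 0.398, adjusted p = 0.882 by edgeR). Library 2 of the cKO group was the highest of its group for all 7 genes that were counted in each of its libraries.

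After TAC the comparison asks whether complement RNA differed between hearts with and without cardiomyocyte METTL5 under pressure overload. C3, C4a, C4b, Cfb and Serping1 were higher in every cKO library than in every Ctrl library, and C8g was lower in every one. For Cfb summed with Gm20547 the groups overlapped. Groups without overlap were found for 10.2% of the 16340 genes tested in the higher and 8.5% in the lower direction. These values took part in the choice of the genes, so they are described without a test. Of the 7 genes that passed the filter 6 had a log2 fold change above 0, with a median of 0.96. Over all genes 49.4% were above 0, with a median near 0 (−0.0035). Cfb passed only through its counts in cKO hearts, since no Ctrl library had more than 4, so its direction followed from the filter. C4a and C4b, which may share reads, were counted as separate genes. The tally is therefore a description as well.

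C3 had 56.8, 49.2, 53.7 and 52.4 CPM in Ctrl hearts after TAC and 126, 86.6, 86.9 and 71.7 CPM in cKO hearts. Its log2 fold change was 0.79 (SE 0.152). The Ctrl hearts lay within a narrow range, and the cKO hearts were both higher and more spread.

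C4b had 8.71, 5.72, 7.86 and 6.61 CPM in Ctrl and 36.4, 23.6, 24.4 and 12.1 CPM in cKO (log2 fold change 1.72, SE 0.289). C4a had 2.15, 1.55, 1.92 and 1.69 CPM in Ctrl and 8.56, 5.65, 5.64 and 2.95 CPM in cKO (log2 fold change 1.63, SE 0.286). The copies therefore differed between genotypes by about the same factor, 3.34 for C4b and 3.12 for C4a as ratios of mean CPM. Reads from their identical stretches may enter either count, so the values of the 2 copies may not be independent. The share of C4a among the reads of both was 20.2% ± 0.759 in Ctrl and 19.2% ± 0.350 in cKO (SD, n = 4). With the 2 copies counted as 1 gene the log2 fold change was 1.71.

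Serping1 had 85.6, 74.6, 86.1 and 78.0 CPM in Ctrl and 226, 155, 146 and 109.5 CPM in cKO, a log2 fold change of 0.96 (SE 0.185). It had the most reads of the 9 genes in these hearts, up to 5248 counts in a library. C7 had 5.41, 3.66, 4.59 and 5.44 CPM in Ctrl and 6.97, 6.18, 6.51 and 5.13 CPM in cKO (log2 fold change 0.36, SE 0.148). For C7 the groups overlapped, since cKO library 4 lay below Ctrl libraries 1 and 4.

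C8g went the other way, with 25, 25, 19 and 30 counts in Ctrl and 11, 11, 14 and 18 in cKO (log2 fold change −1.01, SE 0.234). Its counts were low. The gene overlaps Fbxw5 on the opposite strand, but their exons do not overlap. Cfd, the protease that cuts factor B and is known as adipsin from fat cells, had 4 counts in cKO library 1 and 0 in the other 23 heart libraries. Of the 8 adipocyte markers Cidec, Lep, Plin1 and Retn were at 0 in all TAC hearts, and only 3 passed the filter. The list summed to 637 to 756 CPM in Ctrl and 393 to 590.2 CPM in cKO, with all 3 of those tested called lower by edgeR. With the named markers at 0, this sum is not read as a level of fat cells.

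Library 4 of the cKO group was the lowest of its group for 7 of the 8 genes counted in all 4 of its libraries, and library 1 the highest for 6. Without library 4 the log2 fold changes were 1.95 for C4b, 1.84 for C4a, 1.10 for Serping1 and 0.90 for C3, and without library 1 they were 1.46, 1.37, 0.74 and 0.61.

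**Figure D2:**
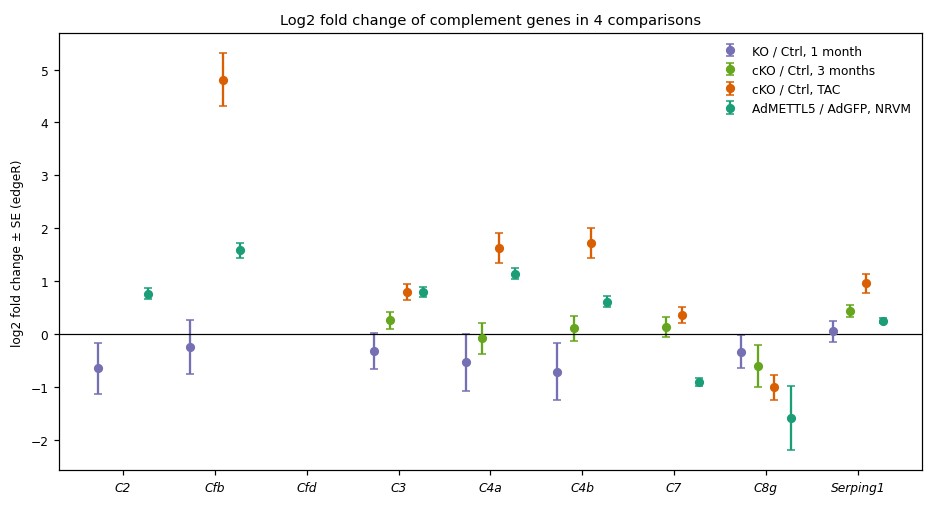
Log2 fold change with its SE from edgeR (y axis) for each complement gene (x axis) in the 4 comparisons, where the gene passed the filter on low counts. After TAC the values run from −1.01 for C8g to 4.81 for Cfb, and at 3 months from −0.61 to 0.44. With Gm20547 summed in, which is not drawn, the value of Cfb after TAC is 0.64. C7 is above 0 after TAC (0.36) and below 0 in NRVMs (−0.91).

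Factor B (Cfb), the serine protease of the alternative pathway, had the largest log2 fold change of the set after TAC, 4.81 (SE 0.496). It had 4, 4, 0 and 0 counts in the Ctrl libraries and 77, 73, 73 and 42 in the cKO libraries. As mean CPM this was 0.0947 ± 0.109 against 2.87 ± 0.588, a ratio of 30.3. The overlapping model Gm20547 had the opposite counts, 50, 31, 40 and 23 in Ctrl and 0, 1, 0 and 0 in cKO.

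The sum of Cfb and Gm20547 was 54, 35, 40 and 23 counts in Ctrl and 77, 74, 73 and 42 in cKO, or 1.83 ± 0.633 and 2.88 ± 0.599 CPM. The summed groups overlapped, and the log2 fold change fell from 4.81 for Cfb alone to 0.64 (SE 0.256) for the sum, a ratio of mean CPM of 1.57. C2, the protease of the classical pathway next to Cfb, did not pass the filter after TAC, with 5, 7, 6 and 10 counts in Ctrl and 19, 24, 22 and 9 in cKO. The sum of all 3 was 59, 42, 46 and 33 counts in Ctrl and 96, 98, 95 and 51 in cKO. Its log2 fold change was 0.75 (SE 0.223), and the groups overlapped, because cKO library 4 lay below Ctrl library 1. These sums were formed after the values of Cfb and Gm20547 had been seen.

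The split between Cfb and Gm20547 also varied among hearts of 1 group. At 3 months cKO library 2 had 49 counts of Cfb and 0 of Gm20547, while cKO library 4 had 0 and 38. Gm20547 held more counts than Cfb in all 4 Ctrl hearts at 3 months and in 3 of 4 cKO hearts. At 1 month Cfb held more in 3 of 4 Ctrl hearts and in 2 of 4 labelled KO, and the 2 KO libraries with 39 and 44 counts of Gm20547 had 7 and 4 counts of C2, against 24 and 18 in the other 2.

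**Figure D3:**
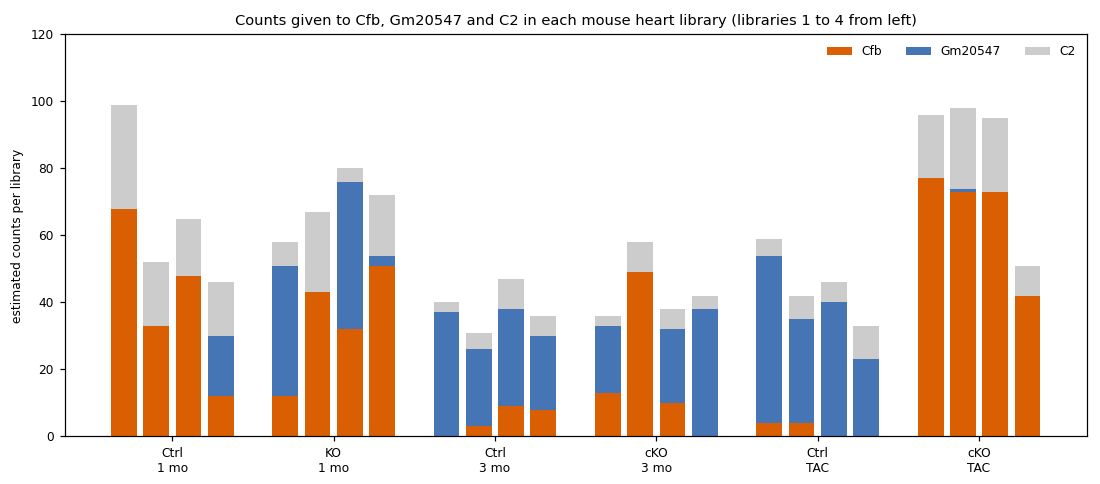
Estimated counts (y axis) given to Cfb, Gm20547 and C2, stacked, in each of the 24 heart libraries, ordered by group (x axis). After TAC the 4 Ctrl bars are mostly Gm20547 and the 4 cKO bars mostly Cfb, while the whole bars are 33 to 59 counts in Ctrl and 51 to 98 in cKO.

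Summed markers of several heart cell types differed by genotype after TAC. Over all genes tested 6.57% were called higher and 6.1% lower by edgeR. Of 10 fibroblast markers 7 were called higher in cKO by edgeR and none lower, and their summed level was 1158 to 1337 CPM in Ctrl and 1528 to 3102 CPM in cKO. Of the 5 activated fibroblast markers tested 4 were higher, and the sum of all 6 was 46.2 to 70.4 CPM in Ctrl and 111 to 990.4 CPM in cKO. Postn, periostin of activated fibroblasts, went from 37.7 to 475.5 CPM on average. Over the cKO libraries the fibroblast sum was 3102, 2177, 2147 and 1528 CPM, so that its highest and lowest libraries were those of C3, C4b and Serping1. The same libraries were highest and lowest for the sums of activated fibroblast, macrophage, neutrophil and hepatocyte markers. The remaining lists did not share both.

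Of 9 macrophage markers 3 were higher, beside 6.57% of all genes, with sums of 186 to 239 CPM in Ctrl and 252 to 323 CPM in cKO. In contrast, 4 of 12 cardiomyocyte markers (56500 to 61450 and 43550 to 53560 CPM), 5 of 8 endothelial markers (710.2 to 849.7 and 490.4 to 648.5 CPM) and 1 of 6 of smooth muscle and pericytes (492 to 544 and 406 to 484 CPM) were lower, beside 6.1% of all genes. So were the 3 tested genes of the adipocyte list given above, which is not read as a level of fat cells. Of the 2 hepatocyte markers tested 1 was higher, with sums of 2.27 to 3.80 CPM in Ctrl and 5.66 to 8.61 CPM in cKO, and Alb, Fgb and Tat were at 0. No marker of neutrophils, lymphocytes or mesothelium was called. In such bulk samples, more cells of a type and more RNA per cell cannot be told apart, and the part of these cell types in the complement values was not tested.

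Set side by side, the genotype difference after TAC was larger than at 3 months for the C4 copies. In a fit of all 4 groups the log2 fold change after TAC minus that at 3 months was 1.73 (SE 0.437) for C4a and 1.63 (SE 0.411) for C4b. It was 0.55 (SE 0.240) for C3, 0.53 (SE 0.232) for Serping1, 0.24 (SE 0.242) for C7 and −0.38 (SE 0.499) for C8g. For Cfb it was 3.03 (SE 1.43) alone and 0.47 (SE 0.344) with Gm20547 summed in, a fit added after seeing the data. These differences contain the TAC values that chose the genes and carry no test. Ctrl hearts had 8.70 ± 1.42 CPM of C4b at 3 months and 7.23 ± 1.32 CPM after TAC, and 69.0 ± 4.36 and 53.0 ± 3.13 CPM of C3, values that come from separate tables.

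The other genes of the pathway, 48 in the mouse tables, were listed by role. None of 29 tested at 1 month and none of 31 tested at 3 months were called by edgeR. Unadjusted p was under 0.05 for 1 of the 29, beside 4.57% of all genes, and for 8 of the 31, beside 7.05%, and DESeq2 called 0 at both ages. At 3 months 26 of the 31 had a log2 fold change above 0, beside 50.3% of all genes, with a median of 0.21. The marker sums of fibroblasts, cardiomyocytes and hepatocytes separated the same hearts, and their part was not tested.

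After TAC 8 of 30 other complement genes rose and 1 fell in cKO hearts, 30% in all, beside 12.7% of all genes tested by the same rule (6.57% higher and 6.1% lower). Among 13 genes of initiation 3 rose. C1ra, a protease of the C1 complex, went from 7.57 ± 0.664 to 12.7 ± 1.45 CPM (log2 fold change 0.73, SE 0.104, adjusted p = 0.00744 by edgeR), and its copy C1rb from 2.71 ± 0.410 to 4.69 ± 0.598 CPM (0.78, SE 0.146, adjusted p = 0.0146 by edgeR). The C1q chains C1qa, C1qb and C1qc, made by macrophages, were not called.

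Among 11 regulators 3 rose and 1 fell. Clu, the terminal pathway inhibitor clusterin, went from 363 ± 23.9 to 1055 ± 472 CPM (log2 fold change 1.52, SE 0.283, adjusted p = 0.0144 by edgeR). Vtn, vitronectin that also blocks the terminal complex, fell from 17.8 ± 2.79 to 10.5 ± 3.51 CPM (−0.78, SE 0.213, adjusted p = 0.0433 by edgeR).

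Among 6 receptors 2 rose, with Vsig4, a macrophage receptor for C3b, going from 0.706 ± 0.330 to 1.86 ± 0.463 CPM (1.38, SE 0.302, adjusted p = 0.0218 by edgeR). None of the 5 genes listed for the terminal pathway passed the filter. The calls of C1ra, C1rb and Clu held when any 1 library was left out, while that of Vsig4 was lost in 6 of 8 such fits and that of Vtn in 7 of 8. Without a filter on low counts that of Vtn was lost as well (−0.76, adjusted p = 0.089 by edgeR). The direct test of the effect after TAC against that at 3 months called none of the other complement genes, beside 0.00586% of 17070 genes tested.

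The pattern of C4a over the 6 groups of hearts was compared with that of 15537 other genes by the root mean square difference of centred log2 group means. The nearest were Ass1 (0.14), Sema3d (0.163) and Ildr2 (0.179), against a median of 0.6 over all genes. Within the set, C4b, which may share reads with C4a, differed from it by 0.088 on the same measure, Serping1 by 0.325 and C3 by 0.381. For the counts given to Cfb alone the nearest were Itgax (0.841), Gm49388 (1.02) and Gm10801 (1.16), against a median of 1.8. This order depends on the split with Gm20547: for the sum of both the nearest were Kdelr3 (0.0707), Itgam (0.0849) and Snai1 (0.0865), against a median of 0.418.

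In NRVMs under PE the comparison asks what extra METTL5 does to complement RNA in cultured heart cells. C2, C3, C4a, C4b, Cfb and Serping1 were higher in every AdMETTL5 library than in every AdGFP library, and C7 and C8g were lower in every one. Of all 15041 genes tested, 25.2% had groups without overlap in the higher and 23.2% in the lower direction. These values also took part in the choice of the genes and are given without a test. The median log2 fold change of the 8 genes that passed the filter was 0.69, beside −0.0022 over all genes, and 6 of the 8 were above 0, beside 49.7% of all genes.

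C2 had 13.4, 12.8, 11.6 and 9.24 CPM with AdGFP and 21.5, 19.9, 21.2 and 17.3 CPM with AdMETTL5 (log2 fold change 0.77, SE 0.112). Cfb had 4.44, 3.67, 3.38 and 3.54 CPM with AdGFP and 12.5, 12.2, 12.0 and 8.39 CPM with AdMETTL5 (log2 fold change 1.58, SE 0.144). Both proteases of the C3-cleaving enzymes were thus higher. No rat genome annotation was used here, so models that overlap Cfb or C2 in the rat were not checked.

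C3 had 29.0, 29.5, 30.1 and 28.8 CPM with AdGFP and 51.6, 40.2, 56.5 and 54.8 CPM with AdMETTL5 (log2 fold change 0.79, SE 0.0912). C4a had 5.57, 5.17, 5.95 and 6.51 CPM with AdGFP and 13.3, 11.3, 14.5 and 12.1 CPM with AdMETTL5 (log2 fold change 1.14, SE 0.104). C4b had 7.41, 6.67, 7.76 and 8.48 CPM with AdGFP and 12.9, 9.99, 11.8 and 11.7 CPM with AdMETTL5 (log2 fold change 0.61, SE 0.102). The counts given to the 2 copies of C4 did not shift alike here. The sequences of the rat copies were not compared, so the split of reads between them was not checked.

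The share of C4a in the counts of both copies was 43.4% ± 0.332 with AdGFP and 52.4% ± 2.07 with AdMETTL5 (SD, n = 4), without overlap. In the mouse hearts this share was between 14.2% and 25.5% in each of the 24 libraries. Summed as 1 gene, C4a and C4b had a log2 fold change of 0.87 in NRVMs.

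Serping1 had 170.2, 164, 164 and 158 CPM with AdGFP and 203, 191, 199 and 187 CPM with AdMETTL5, a log2 fold change of 0.25 (SE 0.0441). C7 had 40.2, 46.4, 39.6 and 38.3 CPM with AdGFP and 23.3, 20.4, 23.4 and 20.2 CPM with AdMETTL5 (log2 fold change −0.91, SE 0.0762). C8g had 30, 22, 28 and 22 counts with AdGFP and 0, 15, 15 and 0 with AdMETTL5 (log2 fold change −1.59, SE 0.610). Cfd, at 3 to 12 counts, was too low to test.

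**Figure D4:**
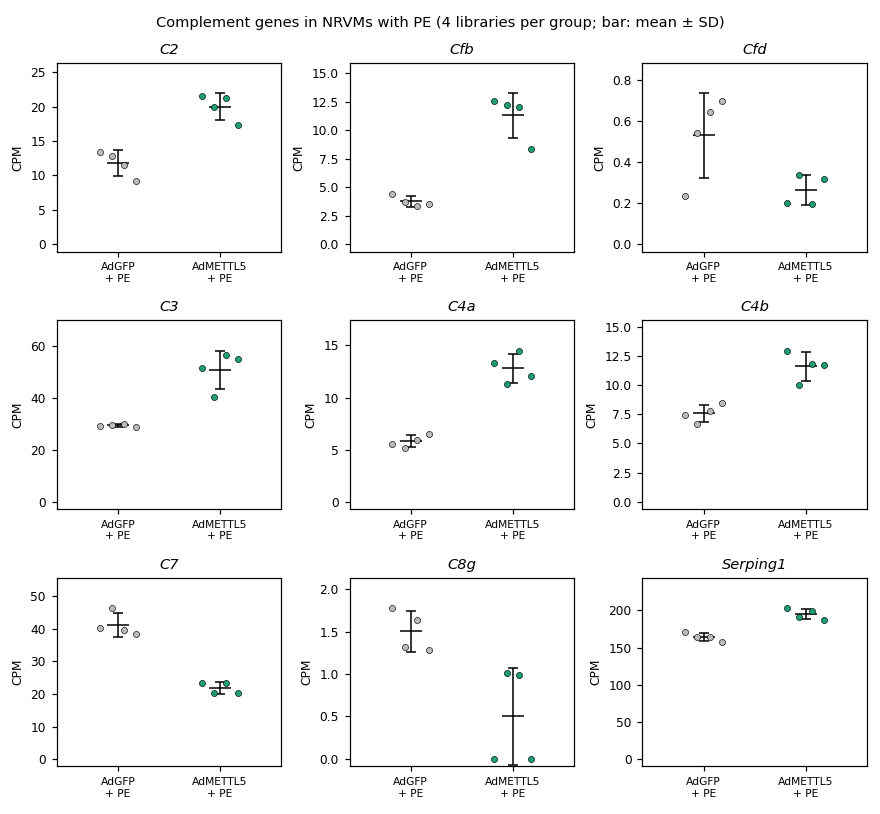
Level of each complement gene (y axis, CPM) in NRVMs with PE after AdGFP or AdMETTL5 (x axis), with points for libraries 1 to 4 from left to right, the mean as a bar and the SD as error bar. C2, Cfb, C3, C4a, C4b and Serping1 are higher and C7 and C8g lower in all 4 AdMETTL5 libraries than in all 4 AdGFP libraries; the Cfd groups overlap.

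Summed markers of several cell types also differed in NRVMs, and those of fibroblasts and macrophages were lower here. Over all genes tested 27.1% were called higher and 25.7% lower by edgeR. All 11 cardiomyocyte markers tested were lower with AdMETTL5, with sums of 44710 to 54860 CPM against 17240 to 19130 CPM. Fibroblast markers were lower for 7 of 9 (11000 to 11560 against 8776 to 9665 CPM), activated fibroblast markers for 5 of 6 with 1 higher (1474 to 1552 against 979.6 to 1049 CPM), mesothelial markers for 7 of 7 (46.4 to 55.1 against 31.0 to 33.4 CPM) and macrophage markers for 3 of 5 tested (92.0 to 109 against 64.7 to 78.2 CPM, with Cd163 at 0).

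Of the endothelial markers 1 of 6 tested was higher (46.6 to 49.3 against 59.2 to 63.6 CPM), and of those of smooth muscle and pericytes 1 was higher and 1 lower (1439 to 1770 against 1474 to 1782 CPM). Beside the 27.1% higher and 25.7% lower of all genes, these counts of called markers do not stand out. Among lymphocyte markers 1 of 1 was lower, among adipocyte markers 1 of 3 higher with Adipoq, Plin1 and Retn at 0, and the 1 hepatocyte marker tested was not called, with Alb, Apoa2 and Tat at 0. No neutrophil marker passed the filter. Their part in the complement values was not tested.

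Of 21 other complement genes tested in NRVMs 8 rose and 4 fell, 57.1%, close to the 52.8% of all genes called by the same rule (27.1% higher and 25.7% lower). Cd55, a membrane regulator that speeds the decay of the C3-cleaving enzymes, had the smallest adjusted p. It went from 19.1 ± 1.57 to 53.1 ± 2.86 CPM (log2 fold change 1.47, SE 0.0671, adjusted p = 1.7e-08 by edgeR). C1s, the protease that cuts C4 and C2, rose from 123 ± 5.61 to 166 ± 10.4 CPM (0.44, SE 0.0541, adjusted p = 3.25e-05 by edgeR). Masp2, its counterpart in the lectin pathway, rose with a log2 fold change of 0.54 (SE 0.114, adjusted p = 0.00179 by edgeR), Itgax, a chain of complement receptor 4, with 0.67 (SE 0.160, adjusted p = 0.00363 by edgeR) and Clu with 0.35 (SE 0.101, adjusted p = 0.0105 by edgeR).

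Cd59, which blocks the membrane attack complex on host cells, fell from 169 ± 9.05 to 137 ± 10.4 CPM (log2 fold change −0.30, SE 0.0604, adjusted p = 0.00117 by edgeR). C5ar2, a receptor for C5a, fell as well (−0.70, SE 0.163, adjusted p = 0.00333 by edgeR), as did the collectin Colec12 (−0.31, SE 0.0965, adjusted p = 0.0165 by edgeR) and the regulator Susd4 (−0.77, SE 0.246, adjusted p = 0.02 by edgeR). The call of Colec12 was lost without AdMETTL5 library 3, and that of Susd4 in 4 of 8 fits that left out 1 library. Both were also lost when libraries were scaled by size alone, with −0.18 (adjusted p = 0.202 by edgeR) for Colec12 and −0.63 (adjusted p = 0.0595 by edgeR) for Susd4. With this scaling 10 of these complement genes were called in place of 12, while over all 15041 genes 8215 were called in place of 7949. The mouse and rat values come from different species, agents and cells and were not tested against each other.

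**Figure D5:**
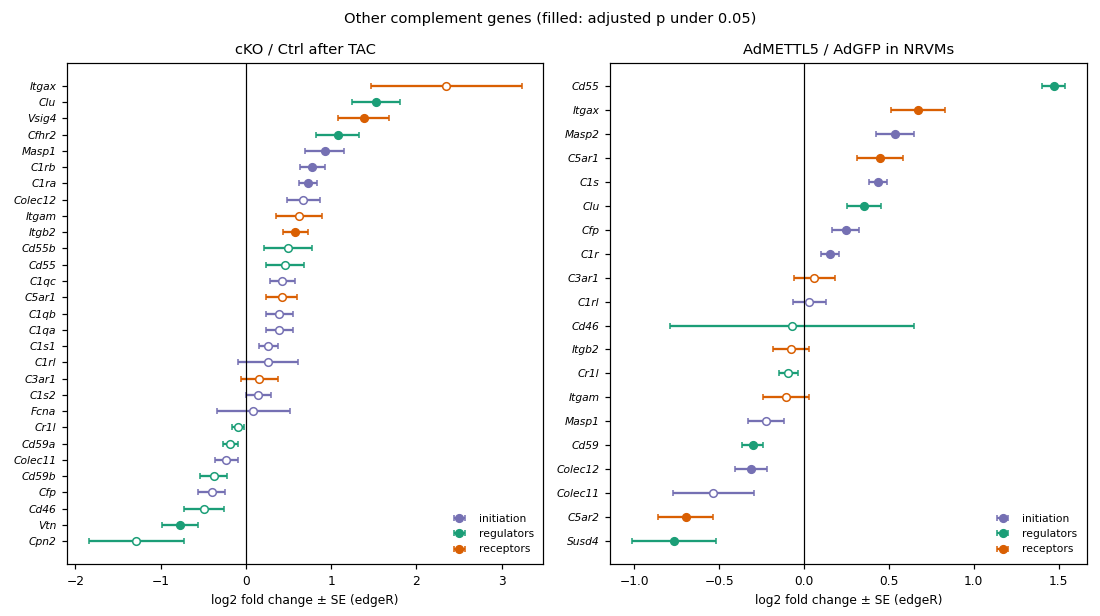
Log2 fold change with its SE from edgeR (x axis) of the other complement genes that passed the filter (y axis, ordered by value), after TAC (left) and in NRVMs (right), coloured by role, with filled points for an adjusted p under 0.05. Not every gene counted is drawn. On the left 7 filled points lie above 0 and 1 below, on the right 8 above and 4 below.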

How the data were processed

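The deposited values were estimated counts per gene. Per the submitters' processing notes, tools named are HISAT2 2.0.4, StringTie 2.1.4 and DESeq2 1.4.5, with GRCm38 and Rnor_6.0 as genomes; per the study's methods, the authors aligned reads with HISAT2 and took counts from StringTie with default options. The values are whole numbers, so rounding changed nothing. Strandedness is not given in the sources used here, and without it reads of overlapping genes on opposite strands cannot be told apart. The members and lists were chosen with earlier results of these data known. The plan had assumed counts of this kind, and the test was kept.

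Each table was fitted whole by the quasi-likelihood test of edgeR 4.0.16 under R 4.3.3. Libraries were scaled by TMM, low genes were removed by filterByExpr at 10 counts and 15 in total, and p-values were adjusted after Benjamini and Hochberg over all genes tested. A gene was called at an adjusted p under 0.05. The SE is the absolute log2 fold change divided by the square root of the F statistic. CPM are scaled by TMM over the 24 hearts together and over the 8 NRVM libraries. Exact permutation tests used mean log2 CPM (prior count 2) over 70 labelings. Group means are given as ± SD with n = 4. Nothing in the labels says whether libraries of a group are separate animals or cultures, so p-values measure the spread between these libraries, which may be technical. By their names, columns of the 1-month table could be assigned to samples, and those of the other tables to groups only, with libraries numbered 1 to 4 in the order of their column numbers. Alternatives were DESeq2 1.42.0, other scalings and filters, fits that left out 1 library, and sums of overlapping genes. The code was tested on simulated data. Genome positions and transcripts came from GENCODE M21, which matched 99.4% of the 55487 mouse gene IDs.

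All 9 genes are named. Of the other complement genes, up to 5 higher and 5 lower with the smallest adjusted p among those called are named in each comparison; of marker lists, counts and sums; and for C4a and Cfb the 3 genes of nearest pattern. Not every gene that this rule names is reported here.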

Additional observations from a re-analysis of the deposited data

Results flagged for a closer look

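In 80 sets of 4 libraries (each complement gene in each group, the C4a share, and the sum of Cfb and Gm20547) the highest or lowest library was set against the range of its group, and 2 stood apart by Dixon's criterion, which chance alone meets in about 1 group in 20. Cfd in cKO hearts after TAC was 0.172 CPM in library 1, or 4 counts, and 0 in the other 3. A set with 3 values at 0 and 1 above it always meets the criterion, so the rate of 1 in 20 does not apply to Cfd. Cfb in NRVMs with AdMETTL5 was 8.39 CPM in library 4, against 12.0 to 12.5 CPM in the other 3, and still above all AdGFP libraries. Without library 4 the log2 fold change of Cfb was 1.70.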

How the results depend on the processing

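Under DESeq2, 1 of the 9 genes was called at 3 months (Serping1) and 1 other complement gene, Clu, in the test of the effect after TAC against that at 3 months. Over all genes with counts DESeq2 called 108 of 30499 at 3 months and 231 of 32530 in that test. Without a filter on low counts 5 other complement genes were called after TAC in place of 9, and leaving out 1 library gave 3 to 12. Counts of 3 came without Ctrl library 2 or Ctrl library 4, counts of 4 without cKO library 1 or 2, and 5 without Ctrl library 3 or cKO library 3. Calls over all genes changed as well, from 2071 of 16340 in the main fit to 1052 of 30075 without the filter. Leaving out 1 library gave 479 of 16638 (without Ctrl library 4) to 3899 of 16659 (without cKO library 4). The test against 3 months called 0 to 5 other complement genes over such fits, with 5 (among them Masp1, Vtn, Clu and Cfhr2, named after their values were seen) without cKO TAC library 4. Without that library this test called 679 of all 17353 genes tested, against 1 of 17070 in the main fit. The remaining counts over the 9 genes and over the other complement genes stayed within a factor of 1.5 of those given; the cause of the changes was not tested.

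Among genes that were not called, some directions turned. At 1 month the log2 fold change of Cfb summed with Gm20547 was 0.27, and of both with C2 0.037, against negative values for Cfb and C2 alone. C4a summed with C4b was 0.067 at 3 months. Leaving out 1 library gave −0.82 to 0.34 for C4a, −0.99 to 0.22 for C4b, −0.53 to 0.049 for Cfb and −0.12 to 0.18 for Serping1 at 1 month, and −0.28 to 0.10 for C4a and −0.14 to 0.26 for C4b at 3 months. The sums with Gm20547 were chosen after seeing the data.

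Scaling by library size alone moved the median of all genes by 0.15 (log2) after TAC and 0.14 in NRVMs, with no change of direction for any of the 9 genes. In NRVMs it gave 0.39 for Serping1 and −0.78 for C7.

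At 1 month samples of both groups carry numbers 1 to 4. Same-numbered samples deviated together with correlations of 0.238, 0.119, −0.108 and 0.076, so the numbers were not taken to pair them. A fit with the replicate number as a block called 0 of the 9 genes and 0 other complement genes. No paired analysis was possible because the columns of the other 3 tables could not be matched to single samples.

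At 3 months C2 had 3 to 9 counts in a library and Cfd 0, and differences in these genes were not detectable at this depth.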
